A study of Mus musculus with 6 samples.

Results

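The genes described here are 9 chemokine receptors of the mouse, namely Ccr1, Ccr2, Ccr4, Ccr7, Ccr8, Cxcr3, Cxcr4, Cxcr5 and Cxcr6. They were taken by their symbol from a table of raw read counts per gene, which held 11922 genes. Of the 9 listed, 8 had a row under their symbol and all of these passed the filter on low counts, among 11759 genes tested. Ccr8 was not analysed here. The RNA came from CD8+ T cells of the spleens of 3 C57BL6/J mice, purified with magnetic beads against CD8α and activated through CD3 and CD28 on beads that were removed before a further expansion. Each mouse gave a vehicle culture, which received water, and an AOA culture, which received 0.25 mM aminooxyacetic acid (AOA), an inhibitor of the enzymes that need the active form of vitamin B6 as cofactor. Both groups were kept for 7 days with 100 units per ml of recombinant human IL-2, so activation and IL-2 were shared by the controls, and no transgene or deletion is named for either group. There were thus 3 libraries per group, and a replicate number stands for a mouse in either group. For its mice in general, the study names both sexes and an age above 6 weeks, and it does not say which sex or age the 3 donors had.

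Chemokine receptors are G protein-coupled receptors that sense small secreted proteins, the chemokines, and steer the migration of leukocytes. On binding, they activate inhibitory G proteins, phosphoinositide 3-kinase and small GTPases that rebuild the actin skeleton, and they are then silenced by receptor kinases, arrestins and RGS proteins. In CD8+ T cells CCR7 serves entry into lymph nodes, whereas CCR2, CXCR3 and CXCR6 are receptors for chemokines of inflamed or peripheral tissue.

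Total counts were 12881962 to 18934869 in the vehicle libraries and 18696114 to 21997078 in the AOA libraries. Values are given as CPM (counts per 1e6 counts) with TMM-scaled library sizes, and levels of different genes are compared only per length, as RPKM (reads per kilobase, scaled like CPM). At these depths 3 counts correspond to 0.138 to 0.238 CPM per library, and intervals on counts cover counting error only. Vehicle replicate 2 stood apart from the other vehicle libraries, with lower Tcf7 (525 CPM against 1585 and 1642 in replicates 1 and 3) and higher Klrb1c (111 against 41.7 and 20.1). AOA replicate 1 stood apart in its own group, with a chi-square per gene over all counts of 71.1 and 64.6 against the other AOA libraries, which differed from each other by 10.5, beside 55.1 and 59.7 for vehicle replicate 2 and 10.02 for the remaining vehicle pair. The members that vehicle replicate 2 touches are also given without it. Without AOA replicate 1 no member gained or lost its call, with log2 differences of -5.42 for Ccr1, -3.00 for Ccr2, 1.28 for Ccr4, -0.61 for Cxcr3 and -1.36 for Cxcr6, and of -0.28 for Ccr7, 0.27 for Cxcr4 and 0.69 for Cxcr5, which stayed uncalled. Cd8a, which encodes the CD8α chain used for purification, was at 654 to 914 CPM with vehicle and 1455 to 1700 CPM with AOA.

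The promoters of the 5 members that passed the test of AOA against vehicle are shown first, because promoter sequence is a feature of these genes that the choice of members did not use. Each line holds the 250 bases before a transcription start in RefSeq on GRCm38.p6, the assembly that mm10 denotes, read 5′ to 3′ on the strand of the gene. Of the 8 members with a row, 6 had an entry in this table. The windows of Ccr2 and Ccr4 lie inside the annotated span of the gene, since the start they precede is not the first base of that span. Capitals mark matches to 5 short motifs that were searched on both strands.
Ccr1, chr9:123968693-123968942, minus strand: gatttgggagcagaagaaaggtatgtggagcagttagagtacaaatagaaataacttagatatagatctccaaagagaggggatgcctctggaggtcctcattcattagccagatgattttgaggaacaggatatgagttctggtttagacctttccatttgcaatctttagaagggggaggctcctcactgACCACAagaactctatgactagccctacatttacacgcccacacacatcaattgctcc
Ccr2, chr9:124101933-124102182, plus strand: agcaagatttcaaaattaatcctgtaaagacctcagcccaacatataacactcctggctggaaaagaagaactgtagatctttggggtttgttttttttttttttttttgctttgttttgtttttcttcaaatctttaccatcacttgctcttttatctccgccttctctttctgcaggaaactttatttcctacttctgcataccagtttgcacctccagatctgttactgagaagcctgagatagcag
Cxcr3, chrX:101734148-101734397, minus strand: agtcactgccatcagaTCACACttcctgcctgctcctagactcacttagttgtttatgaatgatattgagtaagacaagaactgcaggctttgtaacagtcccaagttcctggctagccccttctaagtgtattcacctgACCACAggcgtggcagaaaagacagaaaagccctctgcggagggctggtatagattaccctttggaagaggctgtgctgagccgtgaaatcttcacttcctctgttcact
Cxcr6, chr9:123806227-123806476, plus strand: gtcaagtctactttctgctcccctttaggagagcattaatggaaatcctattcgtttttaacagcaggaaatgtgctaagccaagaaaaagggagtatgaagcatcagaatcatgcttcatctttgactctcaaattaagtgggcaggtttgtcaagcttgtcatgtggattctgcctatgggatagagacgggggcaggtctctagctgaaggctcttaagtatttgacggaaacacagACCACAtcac
Ccr4, chr9:114496545-114496794, minus strand: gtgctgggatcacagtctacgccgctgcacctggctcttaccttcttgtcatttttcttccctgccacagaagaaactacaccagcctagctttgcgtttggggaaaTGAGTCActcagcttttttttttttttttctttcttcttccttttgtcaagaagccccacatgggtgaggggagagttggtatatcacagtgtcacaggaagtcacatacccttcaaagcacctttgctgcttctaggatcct

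The motifs were the RUNX core ACCACA, found in 14% of 32851 promoters of this length, the T-box core TCACAC (12.3%), the STAT site TTCNNNGAA (7.02%), the AP-1 site TGANTCA (6.75%) and the hypoxia response core ACGTG (16.6%). Positions are those of the first matched base, counted back from -1 at the base before the start. The RUNX core occurred in Ccr1 at -58, in Cxcr6 at -10 and in Cxcr3 at -110, thus in 3 of 6 members with a promoter. Cxcr3 also held the T-box core at -234, and Ccr4 held the AP-1 site at -143. The letters of these motifs were not in the windows of Ccr2 and Cxcr4. A match is a description of the letters and was not tested for binding.

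Across the members, Ccr1, Ccr2, Cxcr3 and Cxcr6 were lower with AOA, Ccr4 was higher, and Ccr7, Cxcr4 and Cxcr5 were not called. In edgeR's quasi-likelihood test, taking an adjusted p under 0.05 over all genes tested as the call, 5 of 8 members (62.5%) were called changed, beside 53.0% of all genes. Of these, 4 (50%) were lower with AOA, beside 26.8% of all genes, and 1 (12.5%) was higher, beside 26.2%. The 3 values of each group did not overlap for 5 of 8 members, or 62.5%, beside 62.1% of all genes. The median log2 difference of AOA minus vehicle was -0.51 over the members and -0.02 over all genes. The share of members called is thus near that of all genes. In RNA of whole cultures, fewer cells that express a receptor and less of its RNA per cell cannot be told apart.

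**Figure D1:**
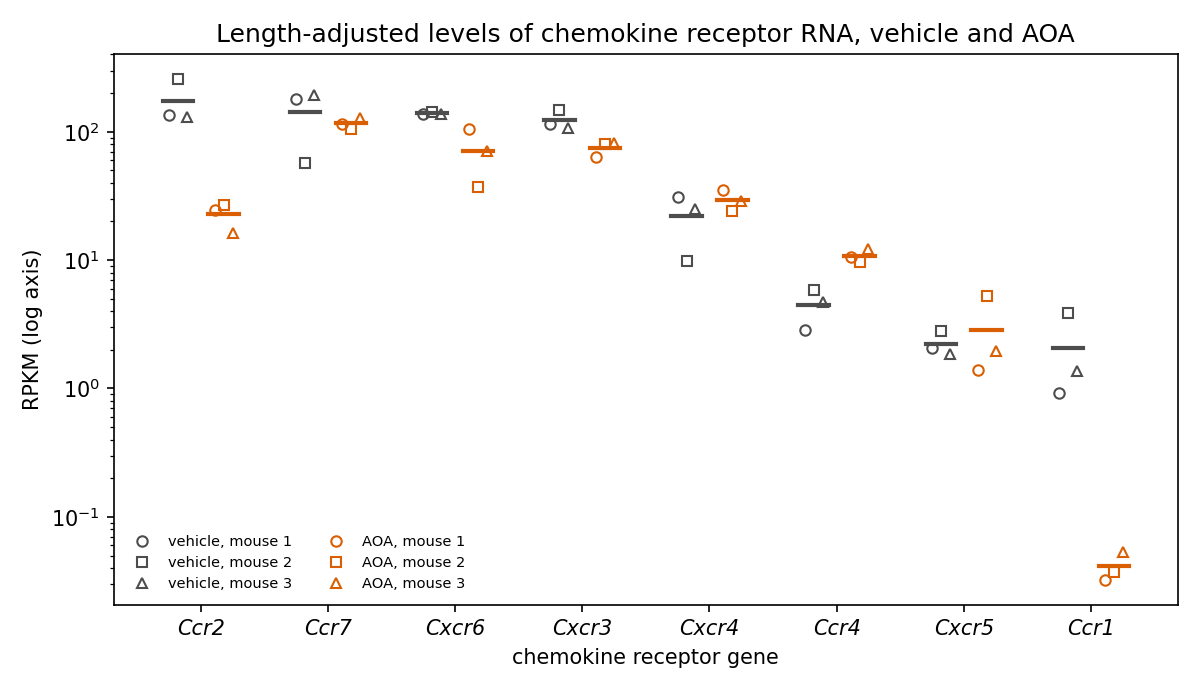
RPKM of the 8 chemokine receptors on a log axis, with 1 symbol per library and a line at the mean of each group of 3. Vehicle points of Ccr2 lie between 130 and 258 RPKM and AOA points between 16.3 and 27.1 RPKM, and the points of Ccr7, Cxcr4 and Cxcr5 overlap between the groups.

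Ccr1 (Entrez gene 12768, GRCm38.p6 chromosome 9 from 123962126 to 123968692) encodes a receptor for CCL3 and CCL5. It had 33, 174 and 71 counts in vehicle replicates 1, 2 and 3, or 2.62, 11.0 and 3.85 CPM. The AOA libraries had 2, 2 and 3 counts, or 0.0919, 0.106 and 0.151 CPM. The groups did not overlap, and all 3 AOA libraries were at or under 3 counts. This gave a log2 difference of -5.58 (SE 0.70, adjusted p = 2.41e-04 by edgeR), with a lower level in 3 of 3 mice. The summed counts, 278 against 7, gave a ratio of 51.3 with a 95% counting interval of 24.6 to 129. Without vehicle replicate 2, the highest library, the log2 difference was -4.71 (adjusted p = 3.11e-05 by edgeR).

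Ccr2 (Entrez gene 12772, chromosome 9 from 124101918 to 124109140) is the receptor for CCL2, a chemokine that recruits monocytes and activated T cells. Its level was 486, 925 and 465 CPM in the vehicle libraries and 88.7, 97.2 and 58.5 CPM in the AOA libraries. The highest AOA value was thus far below the lowest vehicle value. The means were 625 ± 259 and 81.5 ± 20.4 CPM (SD, n = 3), with a log2 difference of -2.94 (SE 0.31, adjusted p = 1.05e-04 by edgeR). In mice 1, 2 and 3 the log2 differences were -2.45, -3.25 and -2.99. Without vehicle replicate 2 the estimate was -2.51 (adjusted p = 1.93e-05 by edgeR).

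Cxcr3 (Entrez gene 12766, chromosome X from 101731535 to 101734147) encodes the receptor for the interferon-induced chemokines CXCL9 and CXCL10. It was at 184, 237 and 172 CPM with vehicle and at 101, 128 and 130 CPM with AOA. All AOA values lay below all vehicle values, by a modest margin. On the log2 scale the difference was -0.72 (SE 0.17, adjusted p = 0.00598 by edgeR). The 3 mice gave -0.86, -0.89 and -0.40, and the estimate without vehicle replicate 2 was -0.53 (adjusted p = 0.0139 by edgeR).

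Cxcr6 (Entrez gene 80901, chromosome 9 from 123806477 to 123811754), the receptor for CXCL16 and a gene of tissue-resident T cells, lies within the span of Fyco1 without sharing its exons. The vehicle libraries were nearly alike, at 260, 271 and 260 CPM, whereas the AOA libraries were spread over 200, 70.0 and 135 CPM. The groups did not overlap, and AOA replicate 2 was the lowest. A log2 difference of -0.96 (SE 0.31, adjusted p = 0.0255 by edgeR) was estimated, and the level was lower in 3 of 3 mice, from -0.38 in mouse 1 to -1.95 in mouse 2. This call was lost without vehicle replicate 1 (-0.95, adjusted p = 0.0586), vehicle replicate 3 (-0.95, adjusted p = 0.0538) or AOA replicate 3 (-0.96, adjusted p = 0.0774), all by edgeR. Without AOA replicate 2 the log2 difference was -0.65 (adjusted p = 0.0273 by edgeR).

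Ccr4 (Entrez gene 12773, chromosome 9 from 114490316 to 114505476), the receptor for CCL17 and CCL22 and best known for skin-homing, type 2 and regulatory T cells, was the member called higher. It was at 7.94, 16.4 and 13.1 CPM with vehicle and 29.3, 26.8 and 33.9 CPM with AOA. All 3 AOA libraries exceeded the highest vehicle library. The means were 12.5 ± 4.27 and 30.0 ± 3.60 CPM (SD, n = 3), with a log2 difference of 1.26 (SE 0.25, adjusted p = 0.00241 by edgeR). It was higher in 3 of 3 mice, by log2 differences of 1.87, 0.70 and 1.37.

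Ccr7 (Entrez gene 12775, chromosome 11 from 99144199 to 99155077), which guides T cells into lymph nodes along CCL19 and CCL21, was not called. It was at 354, 113 and 380 CPM with vehicle and at 228, 209 and 254 CPM with AOA. Vehicle replicate 2 was the lowest and the other vehicle libraries the highest of all 6, so the AOA values lay between them. The log2 difference was -0.29 (SE 0.37, adjusted p = 0.526 by edgeR), with a 95% interval from -1.12 to 0.53, and the level was lower in 2 of 3 mice. The result depended on single libraries, at -0.64 without vehicle replicate 2 (adjusted p = 0.00461 by edgeR) and at 0.01 without vehicle replicate 3 (adjusted p = 0.983 by edgeR).

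Cxcr4 (Entrez gene 12767, chromosome 1 from 128588199 to 128592299), the receptor for CXCL12 of bone marrow and lymphoid stroma, had 56.2, 17.9 and 45.3 CPM with vehicle and 64.4, 43.5 and 52.2 CPM with AOA. The groups overlapped, with vehicle replicate 2 lowest of all. Its log2 difference was 0.43 (SE 0.35, adjusted p = 0.326 by edgeR; 95% interval from -0.36 to 1.21). It was 0.20, 1.28 and 0.21 in the 3 mice, and the estimate was 0.11 without vehicle replicate 2 and 0.78 without vehicle replicate 1 (adjusted p = 0.105 by edgeR).

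Cxcr5 (Entrez gene 12145, chromosome 9 from 44511787 to 44526444), which leads lymphocytes into B cell follicles along CXCL13, was low in every library. It was at 5.40, 7.29 and 4.83 CPM with vehicle and at 3.63, 13.7 and 5.09 CPM with AOA. AOA replicate 2 was the highest and AOA replicate 1 the lowest of all 6. The log2 difference was 0.36 (SE 0.45, adjusted p = 0.536 by edgeR), with a 95% interval from -0.67 to 1.38. Without AOA replicate 2 it was -0.42 (adjusted p = 0.312 by edgeR). Of its exon bases, 3.3% overlap Bcl9l on the other strand, and the sources used here do not state the strand setting of the counting.

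**Figure D2:**
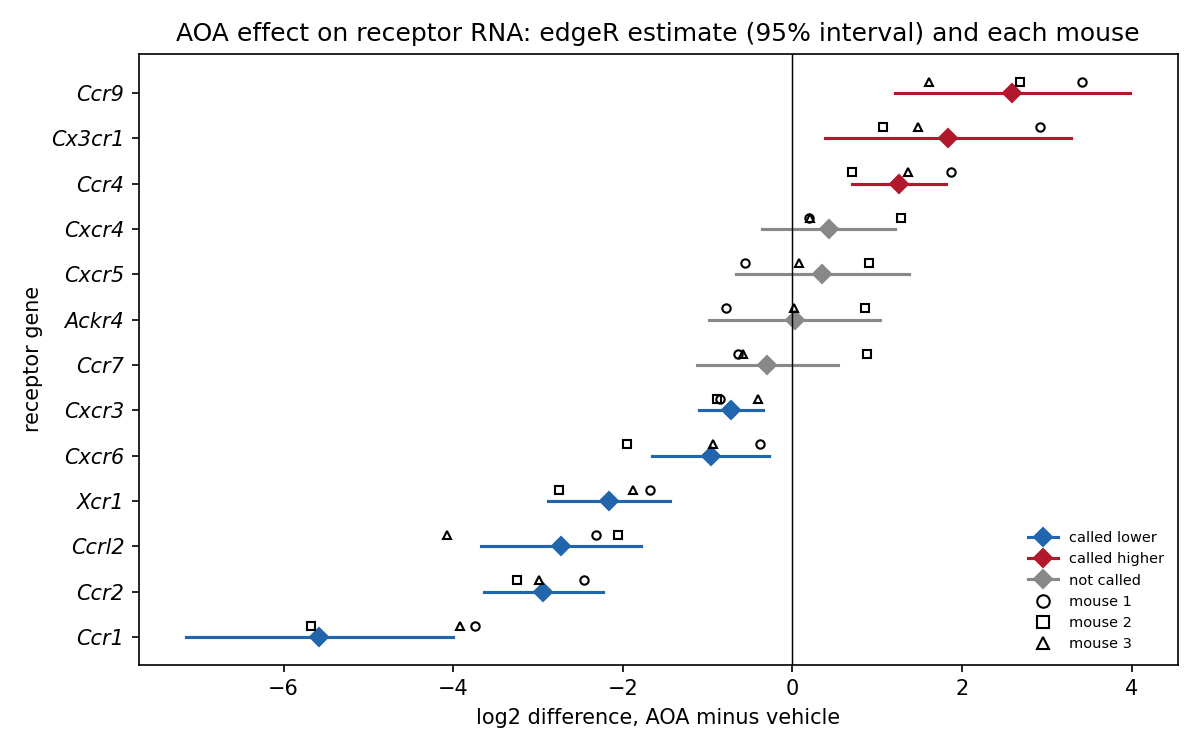
The log2 difference, AOA minus vehicle, of 13 receptors, with the edgeR estimate as a diamond, its 95% interval as a line and the difference within each mouse as open symbols. The open symbols use log2 CPM with a prior count of 2, so at low counts their scale differs from the edgeR estimate. For Ccr1, mice 1 and 3 (-3.74 and -3.91) lie above the interval (-7.15 to -4.00). Among the members the estimates run from -5.58 for Ccr1 to 1.26 for Ccr4, and the 3 mice lie on both sides of 0 for Ccr7 and Cxcr5.

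Ordered by length-adjusted level, the vehicle cultures held Ccr2 (174 ± 72.3 RPKM), Ccr7 (143 ± 74.5), Cxcr6 (139 ± 3.28) and Cxcr3 (123 ± 21.4, all SD, n = 3). Each of these overlapped the next in its range over libraries, so their order is not separated from the spread. Cxcr4 followed at 21.9 ± 10.9 RPKM and Ccr4 at 4.48 ± 1.53 RPKM, without overlap to their neighbours. Cxcr5 (2.23 ± 0.493 RPKM) and Ccr1 (2.06 ± 1.60 RPKM) were the lowest and overlapped. In AOA cultures Ccr7 stood first at 117 ± 11.4 RPKM, above every value of Cxcr3 (74.6 ± 10.02 RPKM). Cxcr3 overlapped Cxcr6 (71.4 ± 34.3 RPKM), and Cxcr4 (29.4 ± 5.79 RPKM) overlapped Ccr2 (22.7 ± 5.67 RPKM). Ccr4 (10.8 ± 1.29), Cxcr5 (2.86 ± 2.09) and Ccr1 (0.0411 ± 0.0110 RPKM) came last, each apart from the next.

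The summed level of the 8 receptors was 603, 628 and 599 RPKM in the vehicle libraries and 356, 289 and 340 RPKM in the AOA libraries. The make-up of this sum differed as well. Ccr2 took 22.4%, 41.0% and 21.6% of it with vehicle and 6.94%, 9.38% and 4.78% with AOA. Ccr7 took 29.7%, 9.14% and 32.1% with vehicle and 32.4%, 36.7% and 37.8% with AOA. Its lowest AOA share was thus just above its highest vehicle share, and its level was not called. Ccr4 went from 0.732% ± 0.238 to 3.28% ± 0.314 and Cxcr4 from 3.62% ± 1.84 to 8.91% ± 0.920 (SD, n = 3). The share of Cxcr3 was 20.1% ± 2.97 and 23.0% ± 4.99 and that of Cxcr6 22.8% ± 0.0668 and 21.2% ± 8.43 (SD, n = 3). These shares are a description and depend on one another, since they sum to the whole.

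**Figure D3:**
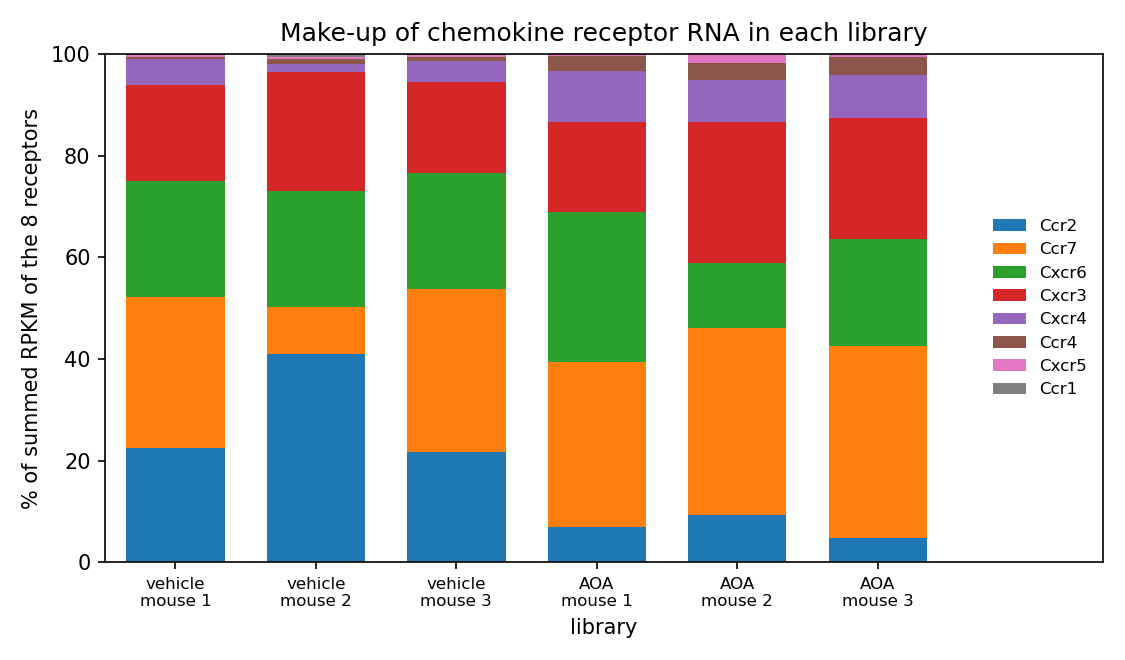
Share of each receptor in the summed RPKM of the 8 receptors, in percent, with 1 bar per library. The Ccr2 share is at most 9.38% in the AOA bars and at least 21.6% in the vehicle bars, and vehicle replicate 2 has the smallest Ccr7 share, 9.14%.

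Of 15 further receptors listed, 5 had a row, and 2 were lower and 2 higher with AOA by the same test, by which 53.0% of all genes were called. Ccrl2, which binds chemerin without signalling, was lower at -2.73 (adjusted p = 6.95e-04), as was Xcr1, the XCL1 receptor known from cross-presenting dendritic cells, at -2.17 (adjusted p = 5.62e-04 by edgeR). Ccr9, the receptor for the gut and thymus chemokine CCL25, had 3, 2 and 16 counts with vehicle and 79, 27 and 57 with AOA. The log2 difference of Ccr9 was 2.60 (adjusted p = 0.00656 by edgeR) and 3.87 without vehicle replicate 3, and 21.5% of its exon bases are shared with other annotated genes. Cx3cr1, the fractalkine receptor, had 0, 7 and 5 counts against 16, 20 and 19 (log2 difference 1.83, adjusted p = 0.0376 by edgeR, and 2.51 without vehicle replicate 2). The call of Cx3cr1 was lost in DESeq2 (adjusted p = 0.0647) and, in edgeR, on leaving out any library other than vehicle replicate 2, where the adjusted p lay between 0.0591 (without vehicle replicate 1) and 0.0930 (without AOA replicate 3). The atypical receptor Ackr4 was not called, at 0.03 (adjusted p = 0.960 by edgeR).

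Of these 13 receptors with a row, 10 lie on chromosome 9, among them 5 members. Over a stretch of 341.9 kb from Ccr9 to Ccr2, 6 tested genes were considered, of which 5 are receptors. Cxcr6, Xcr1, Ccr1 and Ccr2 were lower and Ccr9 was higher. The remaining gene, Fyco1, which encodes an adaptor of autophagosome transport, was also lower (-1.32, adjusted p = 2.74e-04 by edgeR). Beyond the stretch, Lztfl1 (-1.37) and 2010315B03Rik (-1.24) were lower and Sacm1l (0.66) was higher, with adjusted p of at most 0.00286 by edgeR. Limd1 was lower by a small amount (-0.37, adjusted p = 0.0337 by edgeR), a call lost when mice were blocked (adjusted p = 0.0630) or on leaving out vehicle replicate 1 (0.166), vehicle replicate 3 (0.0962), AOA replicate 2 (0.0887) or AOA replicate 3 (0.134). Within 500 kb of Ccr1, 8 tested genes were lower, 2 were higher and 1 was not called, other receptors included, beside 26.8% lower and 26.2% higher among all genes. The windows of Ccr2 (6 lower, 1 higher, 2 not called) and Cxcr6 (8 lower, 2 higher) share genes with it. Around Ccr4, on the same chromosome, 9 of the neighbours were not called, 1 was lower and 1 was higher. Of the neighbours of Cxcr3, 6 were lower, 1 was higher and 7 were not called, whereas around Ccr7 3 were lower, 6 higher and 5 not called. Cxcr4 had 3 higher neighbours and 2 not called, and Cxcr5 had 4 lower, 7 higher and 17 not called.

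**Figure D4:**
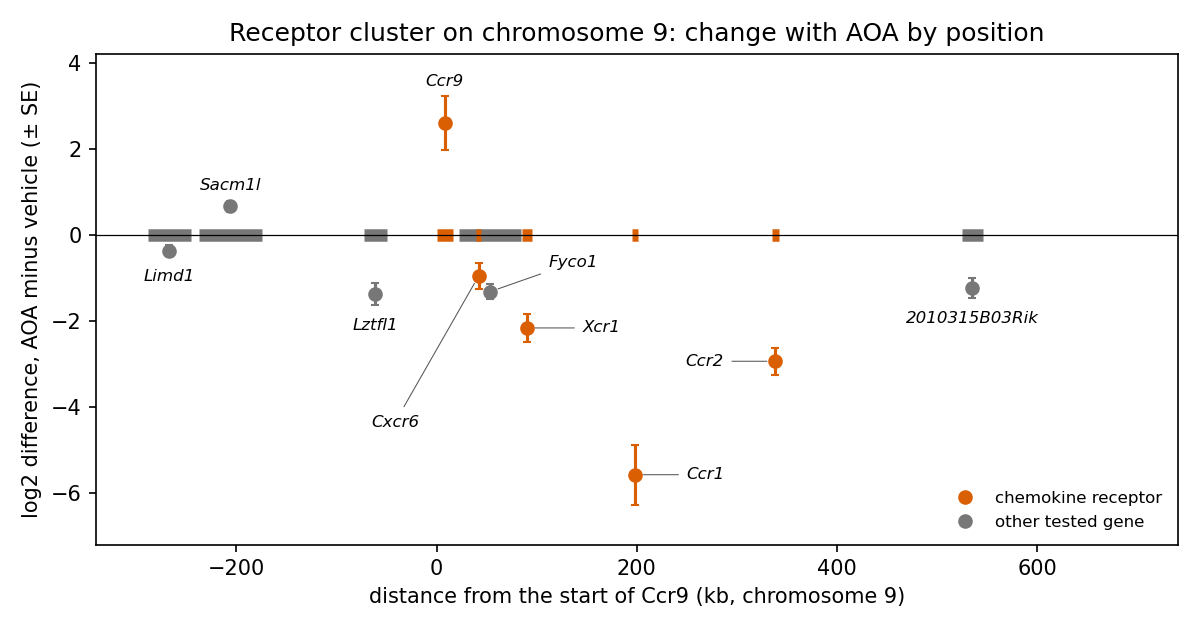
The log2 difference (± SE) of tested genes against their distance in kb from the start of Ccr9 on chromosome 9, with bars on the zero line for the span of each gene. The 4 receptors from Cxcr6 to Ccr2 lie below 0, between -0.96 and -5.58, and Ccr9 lies above 0 at 2.60.

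Of 20 ligands of the members listed, 5 had a row and 3 were tested. Ccl5, a ligand of CCR1, was at 330, 398 and 204 CPM with vehicle and at 8.46, 11.5 and 5.09 CPM with AOA. The groups were far apart, and the log2 difference was -5.22 (SE 0.36, adjusted p = 1.51e-05 by edgeR). Ccl4 was lower too (-1.59, adjusted p = 0.0147 by edgeR), at -0.88 without vehicle replicate 2, and was not called without AOA replicate 3 (-1.45, adjusted p = 0.0538). Ccl3, a ligand of CCR1, was at 1.35, 4.95 and 0.977 CPM with vehicle and 0.506, 1.06 and 0.807 CPM with AOA (-1.62, adjusted p = 0.0526 by edgeR). Blocking by mouse brought it under the threshold (-1.38, adjusted p = 0.0207), as did DESeq2 (adjusted p = 0.0359) and edgeR without vehicle replicate 1 (0.0468) or vehicle replicate 3 (0.0195), and its log2 difference was -0.51 without vehicle replicate 2. Ccl6, with at most 16 counts in a library, and Ccl22, with at most 21, were too low for the test.

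Behind the receptors, 13 of 40 tested genes of the signalling list (32.5%) were lower and 5 (12.5%) were higher, beside 26.8% and 26.2% of all genes, with a median log2 difference of -0.26. Pik3r6, a regulatory subunit of the phosphoinositide 3-kinase that G proteins activate, was lower (-3.32, adjusted p = 9.80e-04 by edgeR, and -2.64 without vehicle replicate 2), as were the kinase gene Jak2 (-1.26) and the G protein subunit gene Gng2 (-1.05). The GTPase genes Cdc42 and Rhoa were higher by 0.58 and 0.46 and the G protein gene Gna12 by 1.24, all on the log2 scale. The call of Rhoa (adjusted p = 0.0178 by edgeR) was lost without vehicle replicate 1 (0.0525) or AOA replicate 3 (0.0552). Gnai2, which encodes the main inhibitory G protein of T cells, was at 571 to 634 CPM with vehicle and 646 to 762 CPM with AOA (0.24, adjusted p = 0.194 by edgeR).

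In the list of genes that silence the receptors, 9 of 13 tested (69.2%) were lower and 1 (7.69%) was higher, beside the same shares of all genes, with a median of -0.93. Rgs1, which speeds the shut-off of inhibitory G proteins, was at 33.7, 52.8 and 36.3 CPM with vehicle and at 7.59, 4.55 and 5.04 CPM with AOA (-2.83, adjusted p = 4.47e-05 by edgeR). Rgs16 was at 5.32, 33.8 and 5.97 CPM with vehicle and under 1 CPM with AOA (-4.67, adjusted p = 0.00124), and at -3.23 without vehicle replicate 2. Rgs2 was lower at -1.93, and Grk2 and Arrb1, which encode a receptor kinase and an arrestin, were lower at -0.73 and -1.36. Rgs18 was higher (2.41, adjusted p = 0.00670 by edgeR), at 3.22 without vehicle replicate 2.

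The 2 genes most like each member were taken by the root mean square difference of centred log2 CPM over the 6 libraries, among 8756 genes with a mean of at least 10 CPM. For Ccr1 they were Gpr141 (0.284) and Havcr2 (0.409), the latter encoding the inhibitory receptor TIM-3, for Ccr2 they were Prxl2a (0.176) and Slc26a11 (0.201), and for Cxcr6 they were 2610008E11Rik (0.216) and Clec2d (0.243). Cxcr3 had the nearest partners, Dnajc1 (0.0482) and Clcn7 (0.0491). Ccr4 was nearest to Bckdk (0.132) and Jaml (0.155), a junctional adhesion molecule. Ccr7 was nearest to Cdc25b (0.119) and Il6st (0.130), Cxcr4 to Mroh2a (0.158) and Cenpa (0.163), and Cxcr5 to Pogk (0.255) and Il2ra (0.273). All share the same libraries, so the values describe likeness only.

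Several receptors described here are also expressed by other cells that could be present, and the marker lists of those cells are given beside them, with 26.8% of all genes lower and 26.2% higher. Of 13 monocyte, macrophage and neutrophil markers 5 had a row and 3 of 3 tested were lower, with a summed level of 59.1 to 77.7 CPM with vehicle and 4.28 to 8.67 CPM with AOA. The markers called lower were Itgam, at 45.4 ± 6.59 and 1.21 ± 0.801 CPM, Cd68, at 14.4 ± 0.962 and 3.83 ± 0.605 CPM, and Fcgr3, at 5.84 ± 3.78 and 0.363 ± 0.419 CPM (SD, n = 3). Itgam thus made up most of the vehicle sum. Of those not tested, Lyz2 was at 0, 0.317 and 0 CPM with vehicle and 0.276, 1.16 and 0.101 CPM with AOA. Lyz2 thus went the other way in each mouse, at low counts. Cd14 was at 1.03, 1.01 and 0.271 CPM with vehicle and 0, 0.0529 and 0 CPM with AOA. Of 10 CD8α dendritic cell markers 5 were tested, 3 were lower and 1 was higher, with sums of 32.9 to 63.4 CPM and 11.2 to 24.3 CPM. Those lower were Xcr1, Itgax and Batf3, and Xcr1 is the receptor already given above, so it adds nothing about the cells. Itgax, which made up most of the vehicle sum, was at 36.3 ± 11.7 and 1.40 ± 0.714 CPM, and the marker called higher was Cd24a, at 3.11 ± 1.10 and 12.5 ± 6.18 CPM (SD, n = 3). Whether the CD8+ T cells themselves expressed Itgam and Itgax was not tested. Of 10 NK cell markers 7 had a row, 6 were tested and 4 were lower, with sums of 175 to 372 CPM and 147 to 235 CPM. Eomes, which CD8 T cells express as well, was not called, at 151 ± 37.5 and 155 ± 41.6 CPM, and among the markers called lower Klrb1c was at 57.7 ± 47.7 and 7.14 ± 3.84 CPM and Tyrobp at 10.4 ± 11.9 and 1.26 ± 0.469 CPM (SD, n = 3). Klre1 (-1.43) and Itga2 (-0.76) were lower too. Without vehicle replicate 2, where both were highest, the log2 difference of Klrb1c went from -3.02 to -2.07 and that of Tyrobp from -3.04 to -1.46, and Tyrobp was not called without AOA replicate 1 (adjusted p = 0.0598 by edgeR). Ncr1, too low for the test, was at 0, 2.35 and 0 CPM with vehicle.

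The lists of other lymphocytes are read against the same shares of all genes, 26.8% lower and 26.2% higher. Of 8 CD4 and regulatory T cell markers 6 were lower, with sums of 1461 to 1660 CPM and 689 to 1307 CPM. Most of these sums came from Il2ra and Ctla4. Il2ra, not called, was at 535, 897 and 593 CPM with vehicle and 479, 1014 and 568 CPM with AOA. Ctla4 was at 634, 348 and 734 CPM with vehicle and 137, 155 and 99.7 CPM with AOA. Whether the CD8+ T cells themselves expressed Il2ra and Ctla4 was not tested. Cd4 was at 63.1 to 119 CPM with vehicle and 5.65 to 12.2 CPM with AOA, and Foxp3 was at 11.0 to 15.9 and 15.5 to 18.3 CPM (adjusted p = 0.127 by edgeR). Of 8 type 2 T cell markers 4 were tested and 2 were lower, with sums of 65.0 to 80.9 CPM and 41.1 to 52.9 CPM. Of 9 B cell markers 5 were tested, 1 was lower and 1 was higher, with sums of 13.4 to 19.0 CPM and 22.5 to 30.7 CPM, and the marker called higher was Cd79b, at 11.7 ± 1.24 and 23.7 ± 4.34 CPM (SD, n = 3). Cd22 was lower, and Ms4a1 was at most 1.14 CPM in any library. Of 10 CD8 T cell markers 2 were lower and 2 were higher, with sums of 5099 to 6360 CPM and 6059 to 7077 CPM. The part of other cells in the receptor results was not tested.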

How the data were processed

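RNA of the CD8+ T cell cultures was sequenced as stranded poly(A) libraries with paired reads of 75 bases. According to the methods and the submitters' processing notes, the authors aligned the reads with STAR to mm10 and counted uniquely mapped reads per gene with featureCounts, and they deposited raw counts with an Entrez number and a length for each gene. The annotation, strand setting and any filter are not stated in the sources used here, and they give no version of the aligner or counter.

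The test was run with edgeR 4.0.16 under R 4.3.3 (filterByExpr with a minimum count of 10, TMM, robust quasi-likelihood test, Benjamini-Hochberg adjustment over all genes tested, threshold 0.05). RPKM values used TMM library sizes and the deposited length. The SE is the absolute log2 difference over the square root of F, and differences within a mouse use log2 CPM with a prior count of 2. Alternatives were no filter, scaling by total counts or by median-of-ratios factors, voom in limma 3.58.1, DESeq2 1.42.0, a replicate block for the mouse, and each library left out. The scripts were tested on simulated data, and tables were joined with pandas 2.3.3 in Python 3.11.15.

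The mouse number pairs the libraries, per the labels. Deviations from group means correlated across genes with r of 0.0868, 0.189 and 0.194 for mice 1, 2 and 3, and genes are not independent replicates. Replicates are cultures of separate mice whose pairs within a group had a chi-square per gene of at least 10.02, so each was counted.

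The members and gene lists were chosen with earlier results of these data known. Genes named are all members, further receptors with a row, tested ligands, up to 3 called genes per direction of other lists, neighbours within 500 kb and the 2 genes most like each member. Ccl6, Ccl22, Tcf7, Klrb1c, Gnai2, Grk2, Arrb1 and marker genes outside this rule were chosen after their values were seen. Results of some genes that the lists take are not reported here. Positions and promoters are those of RefSeq on GRCm38.p6, which gave a position for 99.9% of genes.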

Additional observations from a re-analysis of the deposited data

How the results depend on the processing

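Over 12 alternatives for each of the 8 members, 90 estimates kept their direction and side of the threshold, 3 lost the call, 1 gained it and 2 changed sign. The number of members called was 5 with DESeq2, limma, both other scalings, no filter and the replicate block, and 4 to 6 with a library left out. The median log2 difference of all genes lay between -0.04 and 0.02 in every alternative. The mouse as a replicate block changed no call among members and receptors; with it, Cxcr4 was at 0.55 (adjusted p = 0.0535) and Cxcr6 at -1.08 (adjusted p = 0.00818). It added the ligand Ccl3. With a library left out, the log2 difference of Ccr7 ranged from -0.64 to 0.012, that of Cxcr4 from 0.11 to 0.78, that of Cxcr5 from -0.42 to 0.69 and that of Cxcr6 from -1.36 to -0.65. Ackr4 ranged from -0.23 to 0.37, at -0.14 without vehicle replicate 2, -0.01 without vehicle replicate 3 and -0.23 without AOA replicate 2. The number of ligands called ranged from 1 to 3 and that of all genes called from 4952 to 6796. Leaving out a library leaves fewer samples to estimate the spread, and the cause of the other shifts was not tested. With 3 mice, the 95% intervals of the log2 difference run from -1.12 to 0.53 for Ccr7, from -0.36 to 1.21 for Cxcr4 and from -0.67 to 1.38 for Cxcr5, and Ccr1 with AOA is set by 7 counts in all.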

Other observations

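Of 21 tested receptors of T cell positioning outside the chemokine system, 14 (66.7%) were lower and 3 (14.3%) were higher, beside 26.8% and 26.2% of all genes, with a median log2 difference of -0.86, beside -0.02 over all genes. Ltb4r1, which encodes the leukotriene B4 receptor of inflammatory T cell recruitment, was at 43.1, 45.4 and 40.7 CPM with vehicle and at 0.644, 1.11 and 0.555 CPM with AOA (-5.80, adjusted p = 1.12e-05 by edgeR). Itga1, the collagen-binding integrin of resident T cells, was lower at -4.78 (-5.54 without AOA replicate 2) and Adora2a, the adenosine receptor, at -2.68. Itgae, which pairs with Itgb7 to bind E-cadherin on epithelium, was at 18.8 ± 9.58 CPM with vehicle and 79.4 ± 36.1 CPM with AOA (SD, n = 3), without overlap (log2 difference 2.06, adjusted p = 0.00346 by edgeR). Itgb7 was higher at 0.68 and Ptger4, a prostaglandin E2 receptor, at 0.87, and the call of Itgb7 was lost without AOA replicate 3 (adjusted p = 0.0535).

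Of 29 tested transcription factors of T cell fate, 19 (65.5%) were lower and 1 (3.45%) was higher, beside the same shares of all genes, with a median of -0.70. Bcl6, a repressor known from follicular and memory T cells, was at 70.8, 21.2 and 55.5 CPM with vehicle and 1.66, 2.06 and 2.82 CPM with AOA (-4.49, adjusted p = 7.60e-05 by edgeR). Prdm1, which encodes Blimp-1, a regulator of effector differentiation, was also lower (-2.31), as was Bach2 (-1.66), which restrains it. Id3, a marker of memory precursors, was higher in 3 of 3 mice (1.91, adjusted p = 4.50e-05 by edgeR).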
